A study of Homo sapiens with 6 samples.

Results

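The proteasome is the protease complex that degrades ubiquitin-tagged proteins, and its subunit genes are described here on the polysomes of 3 breast cancer cell lines under low and normal oxygen. The members were the rows of the deposited expression table whose symbol is PSMA, PSMB, PSMC, PSMD, PSME, PSMF or PSMG plus a number only, 47 of 30726 rows. They comprised 18 subunits of the 20S core, 17 subunits of the 19S regulatory particle and 12 assembly chaperones, activators and inhibitors. Another 21 rows that begin with PSM were left out by the rule, 15 numbered pseudogenes, 4 antisense RNAs and 2 other genes. PSMA8, the testis alpha subunit, had no row.

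The 20S core is a barrel of stacked rings in which outer alpha subunits gate the entrance and inner beta subunits cut the substrate. The 19S particle caps the barrel: its base carries a ring of ATPases that unfold and thread the substrate, and its lid binds the base and removes ubiquitin. Interferon-inducible beta subunits replace the catalytic ones in the immunoproteasome, and the transcription factor NFE2L1 is known for raising the whole gene set together when proteasome activity falls short.

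Polysome RNA, the mRNA bound by several ribosomes, was sequenced from established lines kept at 1% oxygen for 8 hours (hypoxia) or at 21% oxygen (normoxia). The lines were SUM1315, a triple negative line, SKBR3, a luminal line with HER2, and T47D, a luminal A line, none with a genetic change named in the labels. With a single library for each line and oxygen level, 3 hypoxia libraries were compared with 3 normoxia libraries, and all cells received cycloheximide, which holds ribosomes on mRNA. Values were taken as RPKM, read counts divided by transcript length in kilobases and by library size, as no header names the unit. A difference is thus one in the share of polysome RNA sequenced. RNA from whole lysates was not analysed here, so that the amount of an mRNA and its loading with ribosomes cannot be told apart, and in bulk samples neither can fewer cells with an mRNA and less of it per cell.

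At the depth read from the values, 1 RPKM on a transcript of 1 kb stood for 21.7 to 33.4 reads or read pairs, and 9675 to 10842 genes reached at least 1 RPKM in a library. The libraries carried most of the markers listed for their labels: ERBB2 stood at 743 RPKM under hypoxia and 615 RPKM under normoxia in SKBR3, and at 8.76 RPKM or less in each of the other libraries. In T47D, ESR1 stood at 4.54 and 5.18 RPKM, and in SUM1315, CAV1 stood at 420 and 388 RPKM, under hypoxia and normoxia. EGFR and FOXA1 did not set their lines apart. EGFR, listed for SUM1315, had 2.84 and 2.00 RPKM there under hypoxia and normoxia. In SKBR3 it was higher under hypoxia, at 6.62 RPKM, and lower under normoxia. FOXA1, listed for T47D, had 39.5 and 55.5 RPKM there, against 27.2 and 47.2 RPKM in SKBR3 (limma adjusted p = 0.117 for SKBR3 against T47D). Of 5 epithelial markers, EPCAM, KRT8, KRT18 and KRT19 stood at 70.8 RPKM or more in SKBR3, at 21.4 RPKM or more in T47D and at 1.48 RPKM or less in SUM1315, while CDH1 was near 0 in SUM1315 and SKBR3 and stood at 10.8 RPKM under hypoxia and 6.12 RPKM under normoxia in T47D. Of 5 leukocyte or stromal markers, PTPRC, CD3E, CD14 and PECAM1 did not exceed 0.145 RPKM, while the collagen gene COL1A1 stood at 119 RPKM under hypoxia and 91.7 RPKM under normoxia in SUM1315, and at 2.34 RPKM or less in the other lines. The hypoxia genes DDIT4, VEGFA, SLC2A1, NDRG1 and BNIP3 rose under hypoxia in the fit over the 3 lines, with limma adjusted p-values between 1.05e-05 and 0.00807. CA9, also listed as a hypoxia gene, was not tested. It had 9.40 RPKM under hypoxia against 0.316 RPKM under normoxia in SKBR3, 0.946 against 0 in T47D and 0.0283 against 0 in SUM1315. Of the 10253 genes tested, 4.12% rose under hypoxia and 2.26% fell, at a limma adjusted p under 0.05.

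Proteasome mRNAs were abundant on these polysomes. The 47 members together held 3196 RPKM under hypoxia and 3949 RPKM under normoxia in SUM1315, 2601 against 2585 RPKM in SKBR3, and 2492 against 3255 RPKM in T47D. As a share of the summed RPKM of a library this was 1.26% under hypoxia against 1.53% under normoxia in SUM1315, 0.958% against 0.945% in SKBR3 and 0.837% against 1.14% in T47D. The share was thus lower under hypoxia in SUM1315 and T47D and about equal in SKBR3. In SKBR3 the sum leaned on PSMA7, its largest member, at 492 RPKM under hypoxia against 402 RPKM under normoxia. By gene, 26 of the 46 members tested were lower under hypoxia in SKBR3 (56.5%), against 56.1% of all tested genes. Core subunits outweighed regulatory subunits in each library, by a ratio of summed RPKM of 2.72 under hypoxia against 2.46 under normoxia in SUM1315, 2.19 against 2.32 in SKBR3 and 3.86 against 3.23 in T47D. These sums compare 1 library with 1 library and were not tested.

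Over the 3 lines, 4 of the 46 members tested fell under hypoxia and none rose, at a limma adjusted p under 0.05 over all 10253 genes, of which 2.26% fell and 4.12% rose. The count of 4 was 2 with each library rescaled to a common sum, 1 under quantile normalization, upper-quartile scaling or a pseudocount of 5, and 0 without T47D or without the expression filter. The lid subunits PSMD11 and PSMD12, the base assembly chaperone PSMD5 and the nuclear activator PSME3 were the 4 that fell, to between 0.559-fold and 0.65-fold of the normoxia level on the log2(RPKM + 1) scale. A further 9 members had an unadjusted p under 0.05, for 13 in all, and did not pass. The log2 fold change was below 0 in 37 of 46 members (80.4%), against 50.8% of all tested genes, and its median was -0.23 in the members against -0.01 in all tested genes. The p-values rest on the spread between 3 pairs of libraries, moderated toward that of genes of like expression.

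The promoters of the 4 members that fell are shown because NFE2L1 and hypoxia-inducible factors are known to bind short elements of this kind upstream of genes. Each is the 250 bases before the RefSeq start in GRCh38.p14, written 5' to 3' on the gene's strand, and capitals mark matches on either strand to TGACNNNGC (the antioxidant response element core that NFE2L1 complexes bind), ACGTG (the hypoxia response element core) or CCAAT. PSMD11 lies at chr17:32444260-32444509 (plus strand), PSMD12 at chr17:67366578-67366827 (minus strand), PSMD5 at chr9:120842923-120843172 (minus strand) and PSME3 at chr17:42833147-42833396 (plus strand).
PSMD11: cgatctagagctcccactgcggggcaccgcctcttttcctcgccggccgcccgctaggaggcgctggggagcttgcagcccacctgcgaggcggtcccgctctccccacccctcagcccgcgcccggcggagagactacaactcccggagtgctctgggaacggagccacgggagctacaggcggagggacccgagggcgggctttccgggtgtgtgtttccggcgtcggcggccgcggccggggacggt
PSMD12: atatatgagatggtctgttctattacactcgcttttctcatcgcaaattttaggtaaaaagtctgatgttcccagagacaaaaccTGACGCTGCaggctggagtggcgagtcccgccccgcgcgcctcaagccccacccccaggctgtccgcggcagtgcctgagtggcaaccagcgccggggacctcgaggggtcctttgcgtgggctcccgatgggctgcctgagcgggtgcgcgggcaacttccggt
PSMD5: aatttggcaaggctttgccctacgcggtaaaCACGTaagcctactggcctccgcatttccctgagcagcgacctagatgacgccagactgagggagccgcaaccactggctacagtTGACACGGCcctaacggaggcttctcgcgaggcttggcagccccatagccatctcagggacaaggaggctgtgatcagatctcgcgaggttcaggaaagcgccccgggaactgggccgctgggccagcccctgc
PSME3: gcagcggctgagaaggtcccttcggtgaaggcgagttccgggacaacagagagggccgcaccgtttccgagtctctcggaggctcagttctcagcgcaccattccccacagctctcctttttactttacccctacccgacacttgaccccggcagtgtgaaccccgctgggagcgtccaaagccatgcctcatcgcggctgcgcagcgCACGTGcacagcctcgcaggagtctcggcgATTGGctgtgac
PSMD11 held no match, PSMD12 held 1 TGACNNNGC, PSMD5 held 1 TGACNNNGC and 1 ACGTG, and PSME3 held CCAAT once and ACGTG on both strands of a single palindrome. The PSME3 start used here lies inside the gene as GENCODE release 29 draws it, from 42824385 to 42843758. That release starts PSMD11 at 32444261, so nearly all of the PSMD11 window lies inside the gene as well. The PSMD12 and PSMD5 windows lie in part inside their genes, which start on the minus strand at 67366627 and 120842984. Promoters were matched for 41 of 47 members, and TGACNNNGC occurred in 11 of these 41 (26.8%), against 11.0% of all 27305 promoters in the table. The subunits themselves held it about as often as other genes, in 2 of 14 core promoters (14.3%) and 2 of 16 regulatory promoters (12.5%). Its other 7 promoters were those of chaperones and activators: PSMD5, PSMD9, PSME1, PSME2, PSME4, PSMG1 and PSMG2, named after their matches were seen. ACGTG occurred in 8 of 41 member promoters (19.5%) against 18.7% of all, in 4 of 14 core promoters and in 0 of 16 regulatory promoters. CCAAT occurred in 18 of 41 (43.9%) against 33.0% of all. A match is a string of letters in this window and does not show binding.

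The lid of the 19S particle held 2 of the 4 members that fell. PSMD11, which clamps the lid to the core and base, had 16.4 RPKM under hypoxia against 29.4 RPKM under normoxia in SUM1315, 4.79 against 5.76 in SKBR3 and 7.68 against 23.4 in T47D. All 3 lines were lower under hypoxia, T47D the most, while the hypoxia and normoxia groups overlapped because SKBR3 stood low at both oxygen levels. PSMD11 fell with a log2 fold change of -0.84 ± 0.21 (SE, 3 lines; limma adjusted p = 0.0469). PSMD12, another scaffold subunit of the lid, had 15.3 against 26.3 RPKM in SUM1315, 6.70 against 8.22 in SKBR3 and 4.65 against 9.30 in T47D, hypoxia against normoxia. It fell by 0.62 ± 0.16 on the log2 scale (SE, 3 lines; limma adjusted p = 0.0469), again with all 3 lines lower and the groups overlapping. Without T47D neither passed, with adjusted p = 0.217 for PSMD11 and 0.215 for PSMD12. Without SUM1315, PSMD12 did not pass either (adjusted p = 0.0905), and neither gene passed under any of the 3 rescalings or with a pseudocount of 5, with adjusted p-values from 0.057 to 0.0804.

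All 8 lid subunits had a log2 fold change below 0, with a median of -0.46, and the 6 others did not pass. PSMD3 had -0.57 ± 0.17 (adjusted p = 0.0706) and PSMD7, the partner of the deubiquitinase PSMD14, had -0.57 ± 0.19 (adjusted p = 0.0957). PSMD14 itself, which cuts ubiquitin chains off the substrate, had 15.2 RPKM under hypoxia and 19.2 RPKM under normoxia in SUM1315, 6.35 against 6.32 in SKBR3 and 6.04 against 9.41 in T47D. The smallest difference of the lid was that of PSMD6, with 5.97 against 7.82 RPKM in SUM1315, 4.07 against 3.62 in SKBR3 and 3.09 against 3.78 in T47D, hypoxia against normoxia (log2 fold change -0.14 ± 0.14, adjusted p = 0.54). In SUM1315 and T47D all 8 lid ratios were below 0, with medians of -0.42 and -0.80, against 49.1% and 46.8% of all tested genes. In SKBR3 5 of 8 were below 0 (62.5%), close to the 56.1% of all tested genes. The SKBR3 median was -0.17 in the lid and -0.05 in all tested genes.

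**Figure D1:**
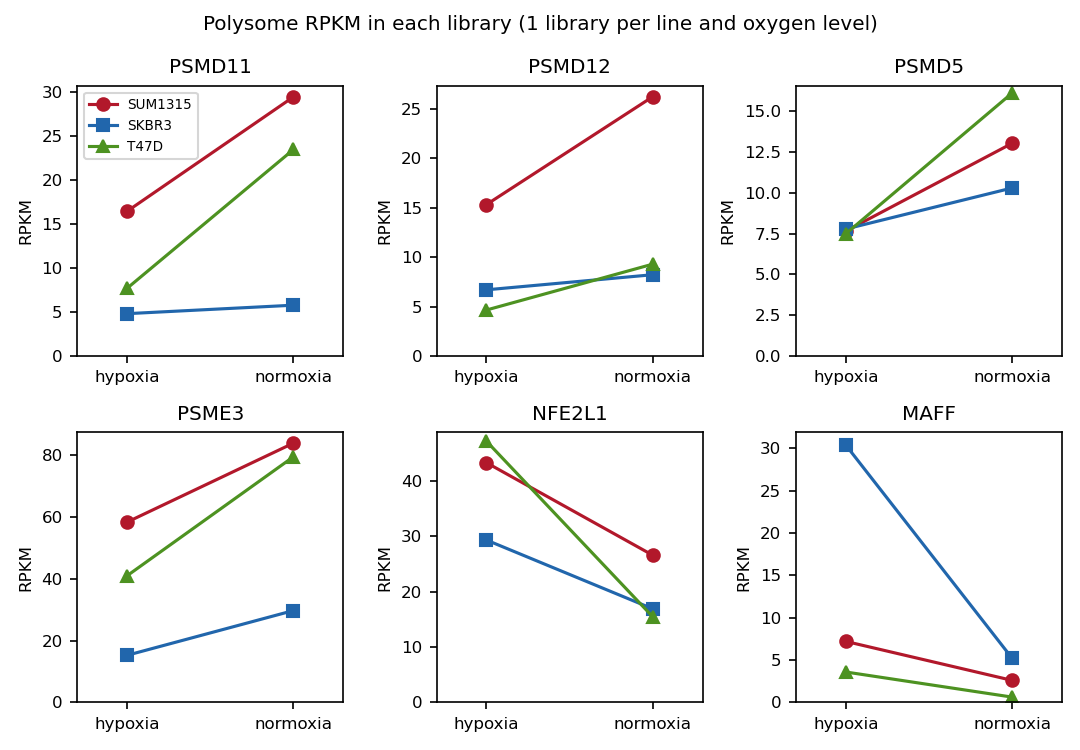
Polysome RPKM in each of the 6 libraries for the 4 proteasome genes that fell under hypoxia and for NFE2L1 and MAFF, which rose; each line joins the hypoxia and the normoxia library of 1 cell line. PSMD5 stood at 7.49 to 7.78 RPKM under hypoxia and at 10.3 to 16.1 RPKM under normoxia, while PSMD11 and PSMD12 stood low in SKBR3 at both oxygen levels.

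Most subunits of the 19S base had ratios above 0 in SKBR3 and below 0 in SUM1315 and T47D, a difference between lines that was not tested. Its 6 ATPases had a median log2 ratio of 0.31 in SKBR3, against -0.37 in both SUM1315 and T47D, and none passed the test over the 3 lines. PSMC1 had 29.3 RPKM under hypoxia against 38.4 RPKM under normoxia in SUM1315, 40.9 against 24.4 in SKBR3 and 12.3 against 15.2 in T47D. SKBR3 alone was higher under hypoxia, and the fold change over the lines was 0.02 ± 0.21 on the log2 scale (adjusted p = 0.962). By GENCODE release 29, 75.8% of the exonic bases of PSMC1 lie opposite those of NRDE2, which did not exceed 0.506 RPKM, and no source used here states whether strand entered the counting. PSMC3, named after its values were seen, had 116 against 154 RPKM in SUM1315, 71.3 against 54.9 in SKBR3 and 70.0 against 93.9 in T47D, hypoxia against normoxia. PSMC4, the lowest of the ATPases by fold change, had 36.8 against 56.8 RPKM in SUM1315, 30.6 against 33.0 in SKBR3 and 16.9 against 26.1 in T47D (log2 fold change -0.44 ± 0.16, adjusted p = 0.124). It was the only ATPase below 0 in all 3 lines, and the other 5 were above 0 in SKBR3 and below 0 in both other lines.

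The non-ATPase base subunits had log2 fold changes between -0.21 and 0.37, with none passing. PSMD2, a docking site for ubiquitin shuttles, had 47.8 RPKM under hypoxia against 54.8 RPKM under normoxia in SUM1315, 55.4 against 26.5 in SKBR3 and 36.3 against 29.8 in T47D. The SKBR3 log2 ratio of 1.04 was the highest of the 46 members in any line, and the fold change over the lines was 0.37 ± 0.22 (adjusted p = 0.30), which became 0.040 without SKBR3 and 0.66 without SUM1315, neither passing. PSMD4, a ubiquitin receptor, had 80.4 against 103 RPKM in SUM1315, 59.2 against 39.6 in SKBR3 and 53.9 against 97.5 in T47D, hypoxia against normoxia (-0.21 ± 0.24, adjusted p = 0.595). PSMD1 was the lowest 19S subunit in each library, at 1.53 to 2.42 RPKM under hypoxia and 1.19 to 1.95 RPKM under normoxia, and was above 0 in all 3 lines by ratios of 0.21 to 0.24. Those levels are close to the pseudocount of 1, where a fold change on log2(RPKM + 1) is understated.

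**Figure D2:**
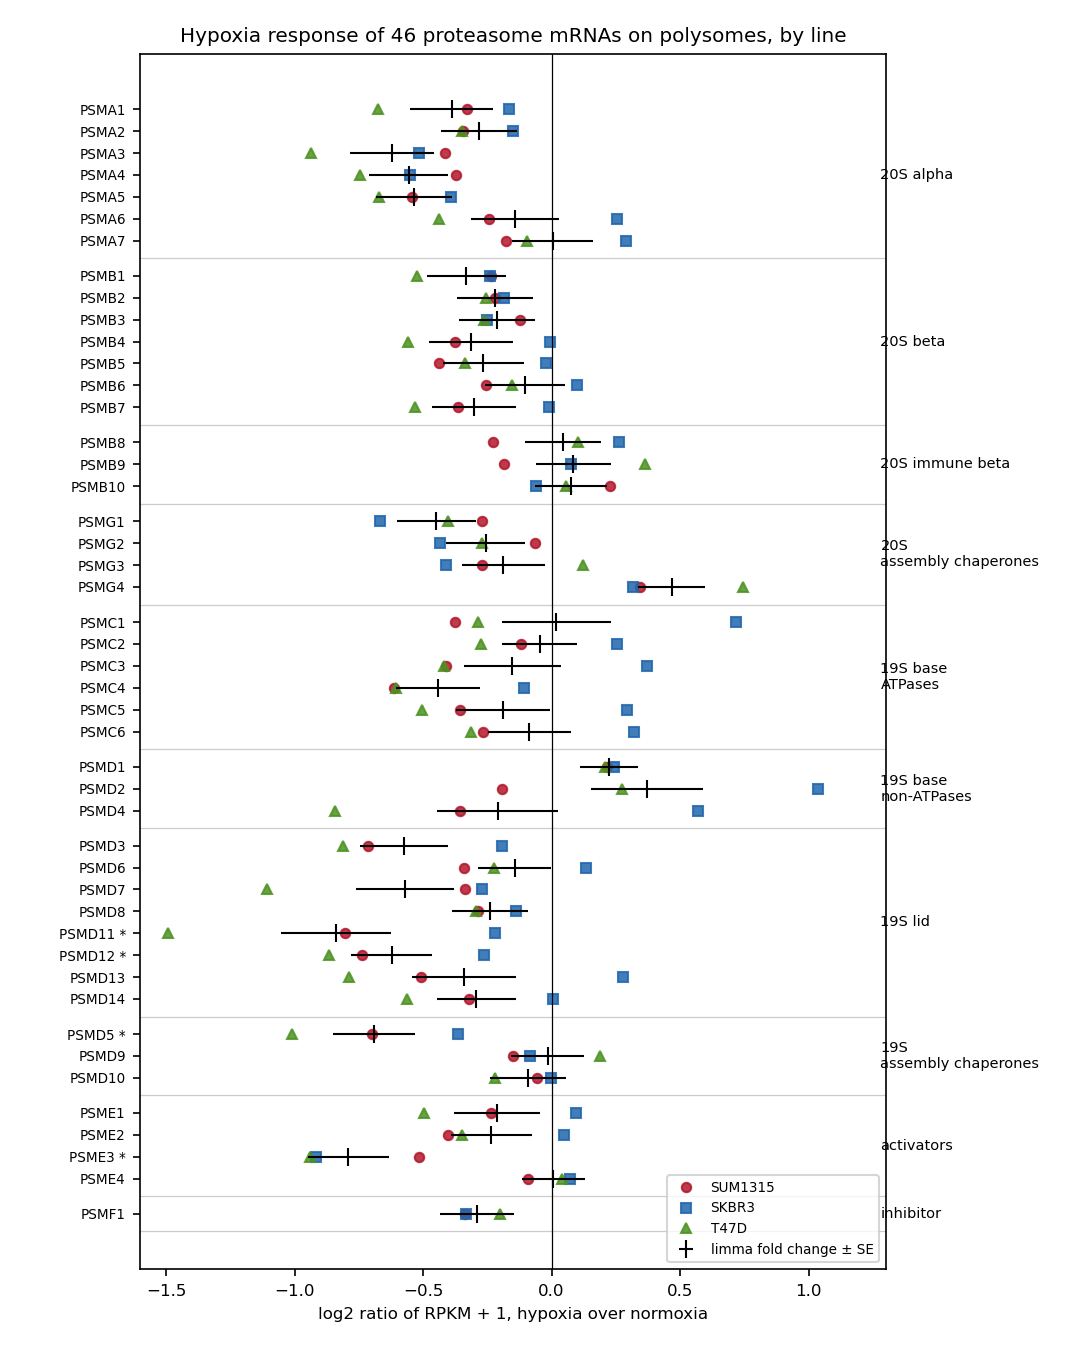
Log2 ratio of RPKM + 1, hypoxia over normoxia, for the 46 members tested, with 1 symbol per cell line and the limma fold change with its SE as a cross, grouped by role; stars mark the 4 members that passed. Most symbols of SUM1315 and T47D lie left of 0, whereas SKBR3 lies right of 0 for 8 of the 9 base subunits.

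The alpha subunits of the core form the outer rings and the gate. PSMA7 was the most abundant member in each library, with 529 RPKM under hypoxia against 599 RPKM under normoxia in SUM1315, 492 against 402 in SKBR3 and 510 against 545 in T47D. Its fold change was 0.01 ± 0.16 on the log2 scale (adjusted p = 0.984), with SKBR3 higher under hypoxia and the other lines lower, and it turned to -0.0013 when each library was rescaled to a common sum. PSMA3 had 47.6 against 63.7 RPKM in SUM1315, 23.9 against 34.5 in SKBR3 and 30.5 against 59.3 in T47D, hypoxia against normoxia. All 3 lines were lower under hypoxia, and at -0.62 ± 0.16 its limma adjusted p was 0.0501, just over the threshold, and 0.0468 with robust moderation. PSMA4 (-0.56 ± 0.15, adjusted p = 0.0584) and PSMA5 (-0.53 ± 0.15, adjusted p = 0.0588) stood close behind. PSMA5, named after its values were seen, had 16.0 to 25.7 RPKM under hypoxia and 26.0 to 37.8 RPKM under normoxia, so that its groups did not overlap.

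Each of the 7 constitutive beta subunits had a log2 fold change below 0, between -0.33 and -0.10, and none passed. PSMB1 was the lowest, with 190 RPKM under hypoxia against 224 RPKM under normoxia in SUM1315, 133 against 157 in SKBR3 and 114 against 164 in T47D (-0.33 ± 0.15, adjusted p = 0.201). The catalytic subunits gave small differences. PSMB5, the chymotrypsin-like site and target of bortezomib, had 148 against 200 RPKM in SUM1315, 132 against 134 in SKBR3 and 46.9 against 59.6 in T47D, hypoxia against normoxia (-0.27 ± 0.16, adjusted p = 0.311). PSMB6, the caspase-like site, had 163 against 194 RPKM in SUM1315, 170 against 159 in SKBR3 and 198 against 221 in T47D (-0.10 ± 0.15, adjusted p = 0.696). PSMB7, the trypsin-like site, had 200 against 258 RPKM in SUM1315, 126 against 126 in SKBR3 and 215 against 311 in T47D (-0.30 ± 0.16, adjusted p = 0.265). The SKBR3 libraries were nearly level for PSMB5 and PSMB7.

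The immunoproteasome subunits stood at lower RPKM than the subunits they replace in each library, and their fold changes lay slightly above 0. PSMB8, which replaces PSMB5, had 13.9 RPKM under hypoxia against 16.5 RPKM under normoxia in SUM1315, 3.91 against 3.09 in SKBR3 and 11.2 against 10.4 in T47D (0.05 ± 0.15, adjusted p = 0.867). PSMB9, which replaces PSMB6, had 13.0 against 15.0 RPKM in SUM1315, 0.878 against 0.780 in SKBR3 and 8.24 against 6.18 in T47D (0.09 ± 0.15, adjusted p = 0.737). PSMB10, which replaces PSMB7, had 14.6 against 12.3 RPKM in SUM1315, 13.1 against 13.7 in SKBR3 and 7.88 against 7.53 in T47D (0.08 ± 0.14, adjusted p = 0.762). None of these differences passed the test, and the sign of each turned when 1 line was left out. PSMB8 and PSMB9 adjoin on chromosome 6 and share 139 exonic bases on opposite strands, so that a small part of their reads may be divided between them. PSMB11, the thymus subunit, was listed at 0 to 0.0249 RPKM and was not tested.

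The chaperones that build the core rings gave both directions. PSMG1, which with PSMG2 assembles the alpha ring, had 60.1 RPKM under hypoxia against 72.7 RPKM under normoxia in SUM1315, 32.4 against 52.1 in SKBR3 and 34.9 against 46.5 in T47D (-0.45 ± 0.16, adjusted p = 0.107). PSMG4, the partner of PSMG3, was the highest member by fold change, with 1.58 against 1.04 RPKM in SUM1315, 1.48 against 0.994 in SKBR3 and 5.91 against 3.12 in T47D. All 3 lines were higher under hypoxia, and at 0.47 ± 0.13 it did not pass (adjusted p = 0.0605). Its exons share 13.3% of their bases with SLC22A23 on the other strand, which reached 9.77 RPKM.

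The chaperones of the 19S base hold its ATPases until they join. PSMD5 had 7.65 RPKM under hypoxia against 13.0 RPKM under normoxia in SUM1315, 7.78 against 10.3 in SKBR3 and 7.49 against 16.1 in T47D. The 3 hypoxia libraries lay within 7.49 to 7.78 RPKM and below each normoxia library, and PSMD5 fell with a log2 fold change of -0.69 ± 0.16 (SE, 3 lines; limma adjusted p = 0.0337). It did not pass without T47D (adjusted p = 0.172), under quantile normalization (0.0528), under upper-quartile scaling (0.0552) or with a pseudocount of 5 (0.0598). The groups of 2 of 46 members (4.35%), PSMD5 and PSMA5, did not overlap, against 3.96% of all tested genes. PSMD9, another chaperone of the base, had 9.60 against 10.8 RPKM in SUM1315, 5.73 against 6.13 in SKBR3 and 21.7 against 18.9 in T47D, hypoxia against normoxia (-0.02 ± 0.14, adjusted p = 0.954). Its sign turned under upper-quartile scaling, to 0.05. PSMD10, a chaperone also known as an oncoprotein in liver, had -0.09 ± 0.15 (adjusted p = 0.716).

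The activators open the core without the 19S particle. PSME3, the nuclear activator, had 58.4 RPKM under hypoxia against 83.9 RPKM under normoxia in SUM1315, 15.3 against 29.7 in SKBR3 and 41.0 against 79.5 in T47D. All 3 lines were lower under hypoxia, SKBR3 and T47D by log2 ratios of -0.92 and -0.94. PSME3 fell with a log2 fold change of -0.79 ± 0.16 (SE, 3 lines; limma adjusted p = 0.022), the lowest adjusted p among the members. It did not pass without SKBR3 (adjusted p = 0.054) or without T47D (adjusted p = 0.0697), and 5.82% of its exonic bases lie opposite BECN1, which reached 16.8 RPKM. The interferon-inducible activators PSME1 and PSME2 had -0.21 ± 0.17 and -0.23 ± 0.16 and did not pass (adjusted p = 0.435 and 0.368). PSME4, a large activator known from testis and DNA repair, had 2.90 against 3.15 RPKM in SUM1315, 4.10 against 3.86 in SKBR3 and 2.30 against 2.21 in T47D, hypoxia against normoxia. Its fold change was 0.01 ± 0.12 (adjusted p = 0.976) and -0.07 under quantile normalization. PSMF1, the inhibitor that binds the core, stood at -0.29 ± 0.14 on the log2 scale (adjusted p = 0.229).

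Core and regulatory subunits had like medians over the 3 lines but not within each line. The median log2 fold change was -0.27 in the 17 core subunits tested and -0.21 in the 17 regulatory subunits, against -0.01 in all tested genes. In SUM1315 the regulatory median was -0.35 and the core median -0.25, and in T47D they were -0.51 and -0.35. In SKBR3 the regulatory median was 0.24 and the core median -0.06, against -0.05 for all tested genes, and the core median there turned to 0.02 under quantile normalization and 0.03 under upper-quartile scaling. The regulatory median minus the core median was thus -0.10 in SUM1315, 0.30 in SKBR3 and -0.16 in T47D. With 1 pair of libraries per line, no difference between lines in this response was tested.

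Counted by member, 37 of 46 (80.4%) had ratios below 0 in both SUM1315 and T47D, among them all 14 constitutive core subunits, against 33.1% of all tested genes. Ratios were below 0 in all 3 lines in 23 of 46 (50%), 11 of 17 core and 6 of 17 regulatory subunits, against 25.2% of all tested genes. Ratios were above 0 in all 3 lines for 2 members, PSMD1 and PSMG4, against 23.5% of all tested genes. Ratios were above 0 in SKBR3 and below 0 in both other lines in 14 of 46 members (30.4%), against 7.88% of all tested genes. These 14 were 9 of 17 regulatory subunits, 6 of them in the base, 3 of 17 core subunits and 2 activators. Under the rescalings tried, which were added after the data were seen, the 9 regulatory subunits stayed 9 and the 3 core subunits became 5 or 6. The members share libraries and are not replicates of a line.

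**Figure D3:**
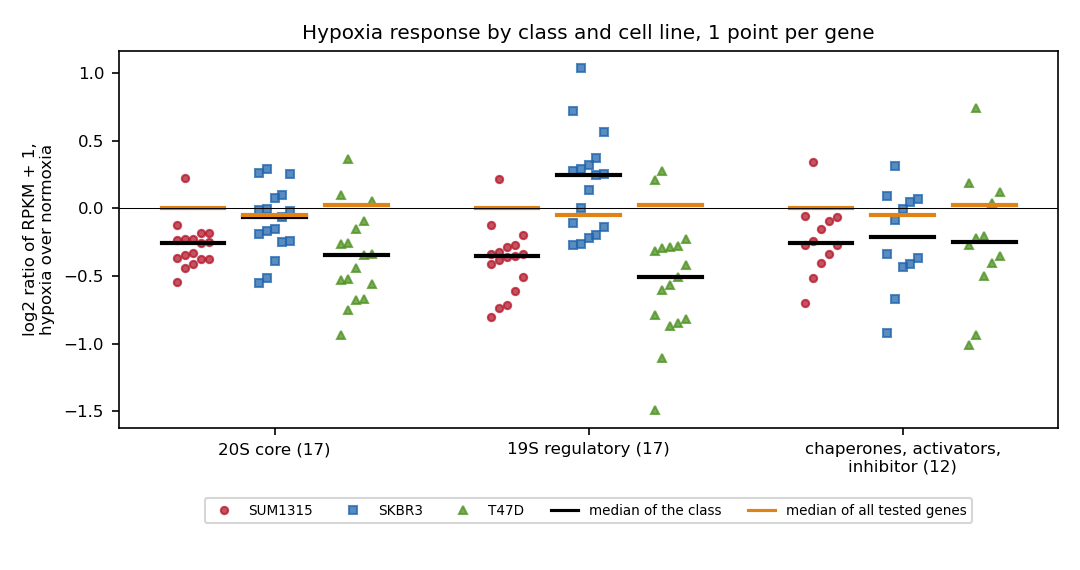
Log2 ratio of RPKM + 1, hypoxia over normoxia, by class and cell line, with 1 point per gene, a black bar at the class median and an orange bar at the median of all tested genes. The regulatory subunits centre on -0.35 in SUM1315, 0.24 in SKBR3 and -0.51 in T47D.

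Levels also differed between the lines, in contrasts fitted over both oxygen levels together, and neither oxygen level was tested alone. Each line has 2 libraries and is 1 line, so these differences are between SUM1315, SKBR3 and T47D and not between tumour subtypes. In SUM1315 against SKBR3, 24 of 46 members were higher and 3 lower, where 41.8% of all tested genes were higher and 28% lower. In SUM1315 against T47D, 24 were higher and 4 lower, where 39% of all tested genes were higher and 30.2% lower. In SKBR3 against T47D, 11 were higher and 12 lower, where 26.6% of all tested genes were higher and 31.2% lower. The highest mean level was in SUM1315 for 30 of 46 members (65.2%), against 44.6% of all tested genes, in SKBR3 for 6 and in T47D for 10. A total of 8 of 46 members (17.4%) passed in none of the 3 contrasts, among them PSMA7, PSMB4, PSMB6, PSMC5 and PSMD2. The same share over all tested genes was not computed, so this count has no background to be read against.

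PSMD3, a lid subunit, differed most between SKBR3 and T47D. It had 132 RPKM under hypoxia and 151 RPKM under normoxia in SKBR3, 19.2 and 34.5 RPKM in T47D, and 51.8 and 85.5 RPKM in SUM1315. Both SKBR3 libraries stood above the others, and the difference was 2.41 ± 0.21 on the log2 scale between SKBR3 and T47D (limma adjusted p = 8.18e-06) and -1.07 ± 0.21 between SUM1315 and SKBR3 (adjusted p = 0.00103). PSMD3 lies at chr17:39980797-39997960 (GRCh38, GENCODE release 29), 250.4 kb after ERBB2, the HER2 gene. PSMB3, named here for its place and after its values were seen, ends 924 kb before ERBB2 and was lowest in SKBR3, with 113 and 135 RPKM, against 251 and 301 RPKM in T47D, under hypoxia and normoxia (-1.15 ± 0.18, adjusted p = 0.000425).

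Among all members, PSMB9 differed most between lines. It was 3.03 ± 0.18 higher on the log2 scale in SUM1315 than in SKBR3 (limma adjusted p = 2.41e-07), and in SKBR3 against T47D it was lower, at -2.16 ± 0.18 (adjusted p = 6.19e-06). PSMB8 followed the same order of lines, with 1.85 ± 0.18 in SUM1315 against SKBR3 and -1.40 ± 0.18 in SKBR3 against T47D. PSMB10 did not follow it: SUM1315 and SKBR3 stood level (-0.01 ± 0.17, adjusted p = 0.98) and SKBR3 was above T47D by 0.73 ± 0.17 (adjusted p = 0.00478). Among constitutive subunits, PSMB5 was lowest in T47D, with SUM1315 above T47D by 1.68 ± 0.19 (adjusted p = 3.13e-05) and SKBR3 above T47D by 1.31 ± 0.19 (adjusted p = 0.000271).

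PSMA4, an alpha subunit, had 65.4 RPKM under hypoxia and 84.9 RPKM under normoxia in SUM1315, against 14.7 and 22.0 RPKM in SKBR3 (1.99 ± 0.19, adjusted p = 6.97e-06). PSME1 had 121 and 142 RPKM in SUM1315, against 37.3 and 53.0 RPKM in T47D (1.54 ± 0.20, adjusted p = 8.12e-05). The members that stood lower in SUM1315 were fewer. PSMF1 had 15.7 and 20.1 RPKM in SUM1315, against 25.4 and 32.3 RPKM in SKBR3, under hypoxia and normoxia (-0.66 ± 0.18, adjusted p = 0.00689). Without the hypoxia or the normoxia library of SUM1315 it did not pass (adjusted p = 0.0928 and 0.0587). T47D was highest for PSMG4 and PSMD9, with SUM1315 lower than T47D by log2 differences of -1.22 ± 0.16 and -0.93 ± 0.18 (adjusted p = 7.71e-05 and 0.000886). PSMD9 gave -1.62 ± 0.18 in SKBR3 against T47D (adjusted p = 3.74e-05).

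**Figure D4:**
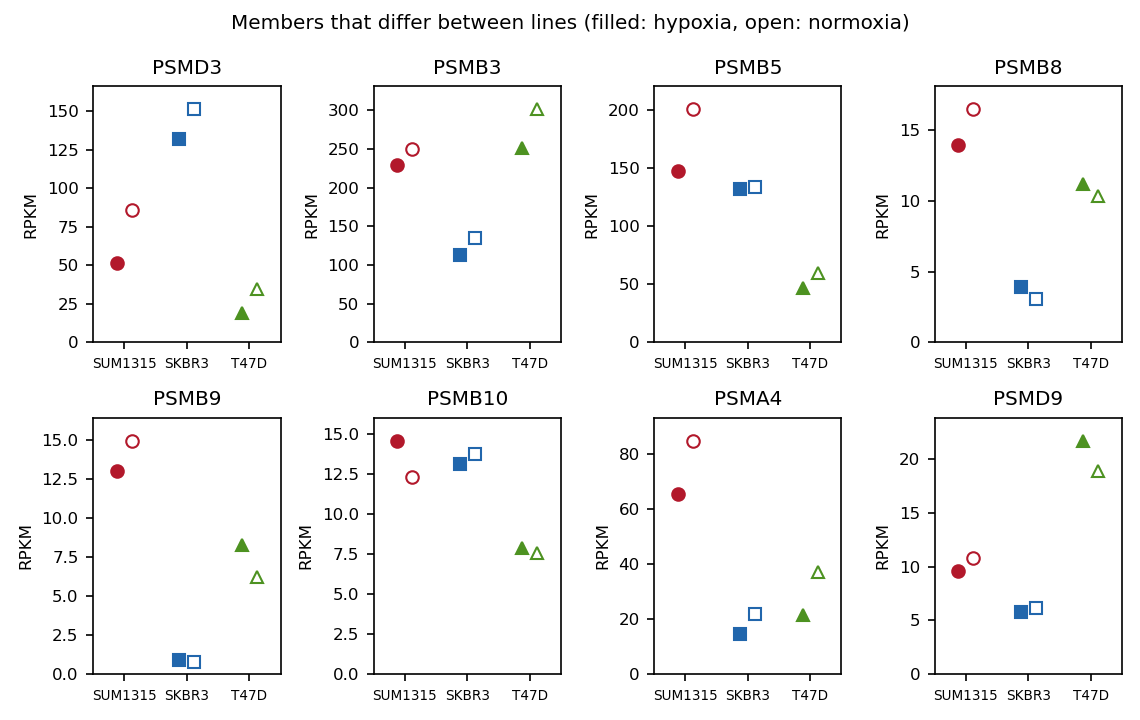
RPKM in each library for 8 members, with filled symbols for hypoxia and open symbols for normoxia. PSMD3 is highest in SKBR3 at 132 and 151 RPKM, PSMB8 and PSMB9 are lowest there, and PSMD9 is highest in T47D at 21.7 and 18.9 RPKM.

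Other genes of the pathway were read from lists of partners and regulators. Of 12 subunits and partners without a PSM symbol, none passed, where 4.12% of all tested genes rose and 2.26% fell. POMP, which matures the core, had 247 RPKM under hypoxia against 289 RPKM under normoxia in SUM1315, 147 against 173 in SKBR3 and 163 against 148 in T47D (-0.11 ± 0.16, adjusted p = 0.688). ADRM1, a ubiquitin receptor of the base, had 89.8 against 141 RPKM in SUM1315, 55.4 against 58.5 in SKBR3 and 43.7 against 88.8 in T47D (-0.58 ± 0.19, adjusted p = 0.095). SEM1, a small lid subunit, had 11.1 against 15.0 RPKM in SUM1315, 26.0 against 16.3 in SKBR3 and 14.0 against 10.7 in T47D (0.20 ± 0.20, adjusted p = 0.548). ADRM1 was lower under hypoxia in SUM1315 and T47D and nearly level in SKBR3, while SEM1 was higher under hypoxia in SKBR3 and T47D.

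Among 10 genes of transcriptional control, 2 rose and none fell, where 4.12% of all tested genes rose and 2.26% fell. NFE2L1 had 43.3 RPKM under hypoxia against 26.6 RPKM under normoxia in SUM1315, 29.3 against 16.9 in SKBR3 and 47.1 against 15.4 in T47D. Each hypoxia library stood above each normoxia library, and NFE2L1 rose with a log2 fold change of 1.00 ± 0.19 (limma adjusted p = 0.0184; 0.0578 without T47D). MAFF, a small Maf protein that pairs with factors of the NFE2L1 family, rose by 1.67 ± 0.20 (adjusted p = 0.00214). The protease DDI2 and the glycanase NGLY1, which process NFE2L1, had -0.32 ± 0.13 and -0.01 ± 0.16 and did not pass (adjusted p = 0.167 and 0.973).

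Among activating enzymes, shuttles and segregase genes of the ubiquitin pathway, NPLOC4, a cofactor of the segregase VCP, fell by 0.76 ± 0.15 (adjusted p = 0.0186; 0.0784 without T47D). The COP9 signalosome, whose subunits resemble those of the lid, had all 10 genes below 0, with a median of -0.24, against 50.8% of all tested genes. None of the COP9 genes passed. Of 8 genes of MHC class I antigen processing, 5 were tested and none passed. Of all tested genes, 4.12% rose and 2.26% fell, so lists this short would often hold no gene that passes.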

How the data were processed

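Polysome RNA-seq of 6 libraries (3 cell lines at 2 oxygen levels) was used as the deposited table of RPKM per gene symbol, made by the authors. The unit is not named in a header and was taken as RPKM. Of 2388 to 2580 genes with 1 transcript, 64.1% to 66.9% fell on whole multiples of a step (tolerance 0.02 of a step). The step was chosen to give a high share, whereas a fixed step would give 4% by chance. Such steps mark counts scaled by length and do not tell RPKM from other units of that kind. Trimmomatic, HISAT2, SAMtools, Partek, GRCh38 and hg38 are named, per the submitters' processing notes, with no versions; no source used here gives the counting annotation or whether strand was used. Depth limits cover counting error only.

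Kept were genes reaching 1 RPKM in at least 3 libraries, 10253 in all and 46 of 47 members, and log2(RPKM + 1) was fitted with limma 3.58.1 in R 4.3.3 (cell line and oxygen as terms, mean-variance trend, two-sided, Benjamini-Hochberg over all genes tested, threshold 0.05). The line pairs the libraries by the labels, and after subtracting the mean of each oxygen level the 2 libraries of a line correlated over genes, at 0.97 for SUM1315 and 0.94 for both SKBR3 and T47D. The 3 line contrasts came from the same fit. Ratios within a line compare 1 library with 1 library. Members, lists and the naming rule were chosen with earlier results of these data known. Named were members with adjusted p under 0.05, the highest and lowest fold change of each role, PSMB5 to PSMB10, members under the filter, the 2 largest differences per direction of each line contrast, and from other lists those that passed and POMP, ADRM1, SEM1 and NFE2L1; other genes are examples picked after their values were seen, and 1 gene of these lists is not reported here. Positions come from GENCODE release 29 and promoters from RefSeq (GRCh38.p14). Pseudogenes held 0.00775% to 0.0399% of the summed PSM RPKM. Protein sequences were not used here. Alternatives were other pseudocounts, no filter, other scalings, robust moderation, no block and each line or library left out.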

Additional observations from a re-analysis of the deposited data

Results flagged for a closer look

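Several proteasome genes and groups had log2 ratios of hypoxia over normoxia on opposite sides of 0 in different cell lines. Each ratio compares 1 library with 1 library, so the differences between lines were not tested. Among single members, 3 passed a fold of 1.25 in both directions. The share of all tested genes that did so was not computed, so this count has no background to be read against. PSMC1, an ATPase of the 19S base, had 0.72 in SKBR3, -0.38 in SUM1315 and -0.28 in T47D. PSMC3, another ATPase, had 0.37 in SKBR3, -0.41 in SUM1315 and -0.42 in T47D. PSMD4, the ubiquitin receptor of the base, had 0.57 in SKBR3, -0.35 in SUM1315 and -0.84 in T47D.

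Of the groups by role, the median over the 6 base ATPases was 0.31 in SKBR3, -0.37 in SUM1315 and -0.37 in T47D. The median over the 3 non-ATPase base subunits was 0.57 in SKBR3, -0.19 in SUM1315 and 0.21 in T47D. For the activators the SKBR3 median was 0.060, against -0.32 for SUM1315 and -0.42 for T47D. The tested immune subunits had a median of 0.10 in T47D, 0.08 in SKBR3 and -0.18 in SUM1315.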

How the results depend on the processing

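The count of members that fell, 4 in the reported fit, was 4 with a pseudocount of 0.1, 2 with each library rescaled to a common sum, 1 with a pseudocount of 5, 1 with quantile normalization, 1 with upper-quartile scaling, 4 with robust moderation (PSMA3 in place of PSMD11, which had an adjusted p of 0.0506) and 0 with no expression filter, where 0 genes passed in limma and 15 members had an unadjusted p under 0.05. Without the pairing of libraries by line (no replicate block) the count was 0, with 0 members at an unadjusted p under 0.05. Leaving out 1 line gave 0 (without T47D) to 4. PSME3 passed under each scaling, pseudocount and robust setting tried. PSMD5 had adjusted p-values of 0.0598 with a pseudocount of 5, 0.0528 with quantile normalization and 0.0552 with upper-quartile scaling, and after rescaling to a common sum PSMD11 and PSMD12 had 0.0593 and 0.057. Over all genes, 654 passed in the reported fit and 232 without T47D. ADRM1 passed without SKBR3 (adjusted p = 0.038), as did PSMD3 (0.0366).

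Class medians kept their sign: -0.20 to -0.27 for the core and -0.14 to -0.22 for the regulatory subunits, and with 1 line left out -0.19 to -0.35 and -0.10 to -0.43. The median of all tested genes was 0.048 under upper-quartile scaling and -0.02 to 0.02 with 1 line left out. Counts of members differing between lines, both directions together, changed by over 1.5 times only without a filter, where SKBR3 against T47D gave 14 members in place of 23. By direction, the 3 members lower in SUM1315 than in SKBR3 became 6 under upper-quartile scaling and 1 without either SUM1315 library, and the 4 lower in SUM1315 than in T47D became 2 without either SUM1315 library. With 1 library left out the counts ranged from 18 to 27, 19 to 30 and 20 to 23 for SUM1315 against SKBR3, SUM1315 against T47D and SKBR3 against T47D. Signs turned for PSMA7 (-0.0013 rescaled to a common sum, -0.14 to 0.097 with 1 line left out), PSMD9 (0.048 with upper-quartile scaling), PSME4 (-0.074 with quantile normalization) and the core median in SKBR3 (0.023 with quantile normalization, 0.029 with upper-quartile scaling). With 1 line left out, signs also turned for PSMB8 (-0.063 to 0.18), PSMB9 (-0.053 to 0.22), PSMB10 (-0.00095 to 0.14), PSMC1 (-0.33 to 0.22), PSMD4 (-0.60 to 0.11), PSMD9 (-0.12 to 0.052), PSME4 (-0.026 to 0.056) and SEM1 (-0.027 to 0.50). The cause was not tested.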
